A study of Mus musculus with 14 samples.

Results

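Expression of 33 genes of peroxisome biogenesis and peroxisomal metabolism was examined in mouse liver. The genes were taken by name from a list of peroxins, transporters and peroxisomal enzymes. All 33 were found among the 37681 genes of the deposited count table, 31 by symbol and 2 by gene identifier (Pex2, listed there as Pxmp3, and Pex11g, listed as Pex11c). All 33 were expressed highly enough to enter the test, which covered 17223 genes.

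Livers came from 14 mice, of which 7 ate a diet rich in fat and sucrose (high fat/high sucrose, HFHS) and 7 a diet low in both (low fat/low sucrose, LFLS). Polyadenylated RNA was sequenced as single reads, with 1 library per mouse. The labels name no genotype or drug, and the sources used here do not give strain, sex, age or length of feeding. Libraries are called by diet and a number from 1 to 7. Sample titles begin with 1 in libraries 1 to 4 of each diet and with 2 in libraries 5 to 7. What this title number marks is not stated in the labels.

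Peroxisomes are small organelles that shorten very long and branched fatty acids, make bile acid intermediates and ether lipids, and break down the hydrogen peroxide their oxidases release. Their enzymes are made in the cytosol and brought in by the import receptors Pex5 and Pex7, which dock at the membrane and are then recycled. In rodent liver, fatty acids and drugs that activate the nuclear receptor PPAR alpha enlarge the peroxisome population and raise its oxidation enzymes.

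Libraries ranged in total from 18.2 to 52.8 M counts (M for mega). Hepatocyte markers summed to between 92300 and 125863 CPM (counts scaled to a library of 1 M) in LFLS libraries and between 81917 and 118541 CPM in HFHS libraries, and none of the 9 passed the test between diets. Exocrine pancreas markers (12 genes) summed to between 7.40 and 1515 CPM in LFLS libraries, highest in LFLS 2, and to between 7.49 and 404 CPM in HFHS libraries. No tested gene of any cell type marker list passed, but some markers were expressed too low to enter the test. It covered 0 of 3 muscle, 2 of 5 adipocyte and 11 of 12 exocrine pancreas markers, so it cannot speak for the others. No marker stood at the lowest value in all libraries. The part of these cells in the results was not tested. In whole liver, fewer cells of a type and less RNA per cell cannot be told apart. The correlation of a library's deviations with the GC content of genes ran from -0.41 in HFHS 7 to 0.59 in LFLS 1, and was positive in all 4 LFLS libraries of title number 1.

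With all 14 libraries, none of the 33 genes differed between diets, at a Benjamini-Hochberg adjusted p under 0.05 in edgeR's quasi-likelihood test. Of all genes tested, 2.81% were called. At an unadjusted p under 0.05, 4 members stood out (Pex11a, Pex7, Hsd17b4 and Pex3, all higher in HFHS), beside 19.6% of all genes. DESeq2 called 2 members higher (Pex7 and Pex11a), where it called 3.15% of all genes higher. The limma voom fit with quality weights called 7 higher (Acaa1b, Pipox, Pex3, Pex7, Pecr, Pex2 and Ech1), where it called 9.96% of all genes higher. Both called 0 members lower, where DESeq2 called 4.15% and limma voom 9.05% of all genes lower. With the title number as a block in edgeR, 3 members rose in HFHS (Pex11a, Pex7 and Pex3) and 0 fell, against 4.38% of all genes higher and 4.56% lower. These 3 calls held when any 1 library was left out of that fit, with edgeR adjusted p-values up to 0.0358 for Pex7, 0.0478 for Pex3 and 0.0495 for Pex11a.

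The promoters of Pex11a, Pex7 and Pex3 are shown because edgeR called these members with the title number as a block. Each sequence runs 5′ to 3′ on the gene's strand from 250 bases before to 50 bases after the start, from RefSeq on build GRCm38.p6, and capitals mark the GC box GGGCGG on either strand. The windows are chr7:79743082-79743381 (minus strand), chr10:19907625-19907924 (minus strand) and chr10:13553093-13553392 (minus strand).
Pex11a: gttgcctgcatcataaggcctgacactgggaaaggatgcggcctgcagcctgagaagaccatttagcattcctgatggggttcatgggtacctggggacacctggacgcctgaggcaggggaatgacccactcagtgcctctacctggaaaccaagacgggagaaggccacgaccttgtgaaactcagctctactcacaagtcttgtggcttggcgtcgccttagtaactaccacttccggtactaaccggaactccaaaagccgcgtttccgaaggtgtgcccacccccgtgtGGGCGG
Pex7: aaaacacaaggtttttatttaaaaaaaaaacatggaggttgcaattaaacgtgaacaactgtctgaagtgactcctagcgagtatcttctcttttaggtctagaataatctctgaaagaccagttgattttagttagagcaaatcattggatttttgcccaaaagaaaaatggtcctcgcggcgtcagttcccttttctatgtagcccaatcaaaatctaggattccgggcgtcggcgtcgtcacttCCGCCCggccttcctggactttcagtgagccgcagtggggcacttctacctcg
Pex3: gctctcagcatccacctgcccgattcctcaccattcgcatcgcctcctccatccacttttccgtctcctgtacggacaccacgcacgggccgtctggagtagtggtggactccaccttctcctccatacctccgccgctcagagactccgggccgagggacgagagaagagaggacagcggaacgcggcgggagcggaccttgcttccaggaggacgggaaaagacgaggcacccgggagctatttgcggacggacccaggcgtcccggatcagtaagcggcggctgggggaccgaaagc
The GC box stood once in the windows of Pex11a and Pex7 and was not in that of Pex3. Windows were found for 29 of the 33 members. On either strand GGGCGG lay in 64.7% of the members' 34 windows and in 35.7% of the 32851 windows of all genes. The members' windows were also richer in GC, with a median of 57.3% against 52.7%. Whether the GC box was more frequent than their GC content gives was not tested. The PPAR-type direct repeat (AGGTCA, any 1 base N, then AGGTCA again) was in none of the members' windows and in 0.040% of all windows. Only these exact letters were sought. With 13 matches among all 32851 windows, a set of 34 would rarely include any, so the absence cannot set the members apart. Its unit, AGGTCA, was in 11.8% against 16.3%, CCAAT in 38.2% against 37.4%, and CACGTG in 2.94% against 7.15%. These are matches of letters in a short window.

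The members spanned a wide range of levels, here given as CPM per kilobase of exon. Scp2, the gene of sterol carrier protein and its thiolase form, stood highest at 1190 ± 213 CPM per kb in LFLS and 1260 ± 121 in HFHS (SD, n = 7). Acaa1b, a thiolase of beta-oxidation, followed at 958 ± 565 and 1283 ± 155 CPM per kb. Catalase (Cat), which removes hydrogen peroxide, stood at 810 ± 105 and 854 ± 93.0 CPM per kb. Phyh, the hydroxylase that begins alpha-oxidation, stood at 798 ± 199 and 710 ± 137 CPM per kb. The levels of these 4 genes overlapped between libraries. Every library of each of the 4 lay above every library of the other 29 members, with the lowest value among the 4 at 530 CPM per kb and the highest among the rest at 232. Ehhadh led the rest at 169 ± 41.1 CPM per kb in LFLS and 158 ± 38.6 in HFHS, and the members after it formed a graded series in which neighbours overlapped. The peroxins lay lower, between Pex11a (46.0 ± 5.61 in LFLS, 70.8 ± 20.7 in HFHS) and Pex10 (1.48 ± 0.40 and 1.53 ± 0.22 CPM per kb).

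**Figure D1:**
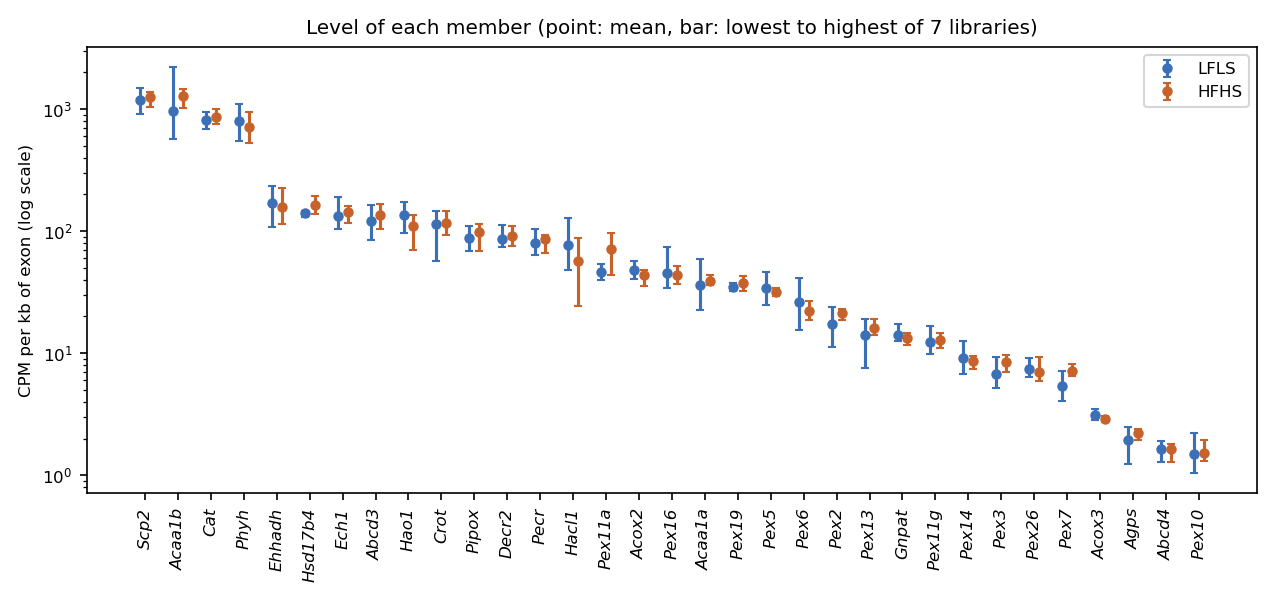
Level of each of the 33 genes in CPM per kilobase of exon on a log axis, ordered from highest to lowest. Points are means of 7 libraries per diet (blue LFLS, orange HFHS) and bars run from the lowest to the highest library. Scp2, Acaa1b, Cat and Phyh stand apart above the rest, and the bars of both diets overlap for all 33 genes.

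Together the 33 genes took 1.47% ± 0.09 of all counts in LFLS and 1.62% ± 0.09 in HFHS (SD, n = 7). The share ran from 1.39% to 1.65% over LFLS libraries and from 1.45% to 1.73% over HFHS libraries, so the diets overlapped. Relative to LFLS, 21 members had positive and 12 had negative log2 differences. Their median was 0.08, beside -0.01 over all genes tested. The median size of the log2 difference regardless of sign was 0.12 for the members and 0.18 for all genes. The libraries of both diets overlapped for all 33 members, as 1.65% of all genes did not. For 25 of 33 members the 95% interval of the diet difference lay within 1.5-fold in either direction, against 54.9% of all genes, and for 32 it lay within 2-fold. The exception was Hacl1.

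**Figure D2:**
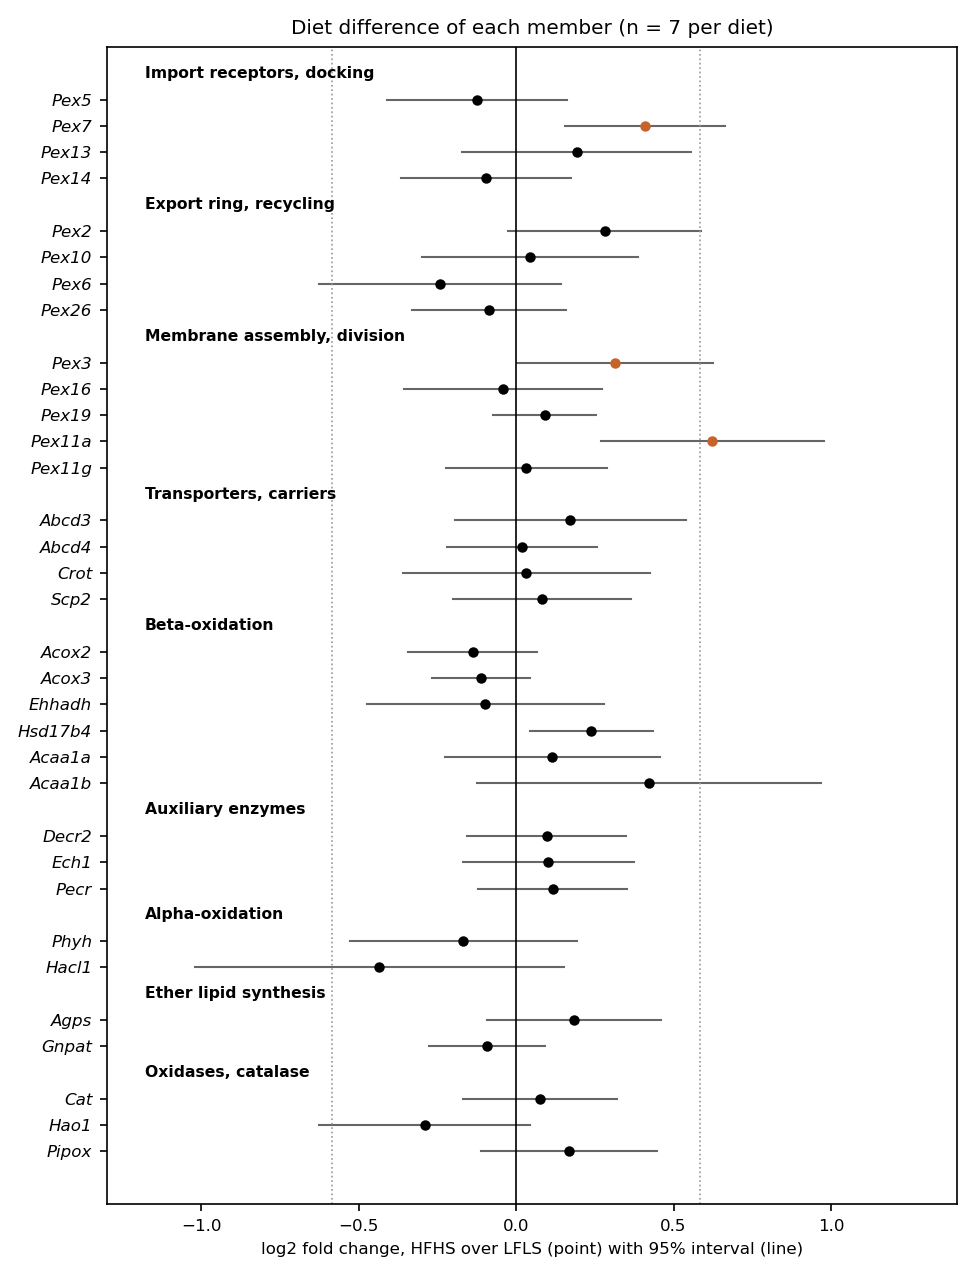
Log2 fold change of each member, HFHS over LFLS, with its 95% interval from edgeR's fit without a block (n = 7 per diet), grouped by role. Dotted lines mark 1.5-fold, and orange points mark Pex7, Pex3 and Pex11a, the members called with the title number as a block.

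Among the genes of membrane assembly and division, Pex3, Pex16 and Pex19 insert membrane proteins into the peroxisome, and Pex11a and Pex11g are membrane proteins that elongate peroxisomes before they divide. With edgeR's TMM-scaled fit none of the 5 was called without the block and 2 were called with it. Pex11a had the largest diet difference of the 33 members. Its LFLS libraries ran from 128 (LFLS 3) through a median of 141 to 172 CPM (LFLS 6), and its HFHS libraries from 138 (HFHS 4) through 240 to 306 CPM (HFHS 5). Of the 7 HFHS libraries, 5 lay above the highest LFLS library, and HFHS 3 and HFHS 4 lay within the LFLS range. The difference was 1.54-fold (95% interval 1.20 to 1.97), or a log2 of 0.62 ± 0.17 (SE), with an edgeR adjusted p of 0.0559. It passed the threshold when LFLS 6 (0.0400), HFHS 3 (0.0445) or HFHS 4 (0.0246) was left out. With the block the log2 difference was 0.59 ± 0.14, with an edgeR adjusted p of 0.0210. Within title number 1 the log2 difference was 0.37 (edgeR adjusted p 0.200) and within number 2 it was 0.91 (0.0244). Pex11a also passed after an offset for the GC content of genes, at a log2 of 0.64 with an edgeR adjusted p of 0.0422. It passed as well with library totals alone (edgeR adjusted p 0.0360) and in DESeq2 (0.0116), and its limma voom adjusted p was 0.0612.

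Pex3, the membrane anchor to which Pex19 delivers its cargo, ran in LFLS from 24.5 (LFLS 3) through 27.4 to 44.4 CPM (LFLS 6). In HFHS it ran from 33.5 (HFHS 3) through 41.8 to 46.2 CPM (HFHS 7). All 7 HFHS libraries lay above the LFLS median, and only the 3 LFLS libraries of title number 2 reached the HFHS range. The log2 difference was 0.31 ± 0.15 (SE) with an edgeR adjusted p of 0.252 without the block, and 0.34 ± 0.08 with an adjusted p of 0.0215 with it. Without the block its adjusted p was 0.0160 in limma voom and 0.248 in DESeq2. Within number 1 the log2 difference was 0.50 (edgeR adjusted p 0.0271) and within number 2 it was 0.15 (0.351). Pex3 has the lowest GC content of the members, 38.5%. With the GC offset and the block together, its log2 difference was 0.01 with an edgeR adjusted p of 0.9505. The other 3 genes of the group had small differences, with log2 values of 0.09 for Pex19, 0.03 for Pex11g and -0.04 for Pex16. Their edgeR adjusted p-values were 0.548 or more.

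Among the import receptors and docking genes, Pex5 carries the many enzymes with the C-terminal import signal, Pex7 carries the few with the N-terminal signal, and Pex13 and Pex14 form the docking site at the membrane. With edgeR's TMM-scaled fit none of the 4 was called without the block and Pex7 was called with it. Pex7 ran in LFLS from 49.0 (LFLS 2) through 67.2 to 86.5 CPM (LFLS 6), and in HFHS from 78.0 (HFHS 4) through 83.3 to 98.1 CPM (HFHS 6). All 7 HFHS libraries lay above the LFLS median, and the highest LFLS library lay above 4 of them. Within each title number the diets did not overlap. In number 1 LFLS reached 70.7 CPM and HFHS began at 78.0 CPM, and in number 2 LFLS reached 86.5 CPM and HFHS began at 94.1 CPM. These groups hold only 4 and 3 libraries per diet, and the share of all genes that separate so is not given here. The difference over all libraries was 1.33-fold (95% interval 1.11 to 1.58), a log2 of 0.41 ± 0.12 (SE), with an edgeR adjusted p of 0.0767. It passed without LFLS 6 (adjusted p 0.0261) and with the block (log2 0.41 ± 0.09, adjusted p 0.0131). Without the block it also passed with library totals alone (edgeR adjusted p 0.0300), in DESeq2 (0.0306) and in limma voom (0.00342). In title number 1 its edgeR log2 difference was 0.48 (edgeR adjusted p 0.0449) and within number 2 it was 0.35 (0.133). With the GC offset and the block together it was 0.28 with an adjusted p of 0.112, where the GC content of Pex7 is 44.0%.

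The cargo of Pex7 is known to include the thiolases of Acaa1a and Acaa1b, Phyh and Agps. These 4 members had log2 differences of 0.12, 0.42, -0.17 and 0.18, and edgeR called none of them over all libraries without the GC offset, with or without the block. The docking genes gave 0.19 for Pex13 and -0.10 for Pex14, with edgeR adjusted p-values of 0.564 and 0.712. Pex13 was lowest in LFLS 1, at 34.8 CPM, and stood at 51.9 CPM or more in every other library.

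**Figure D3:**
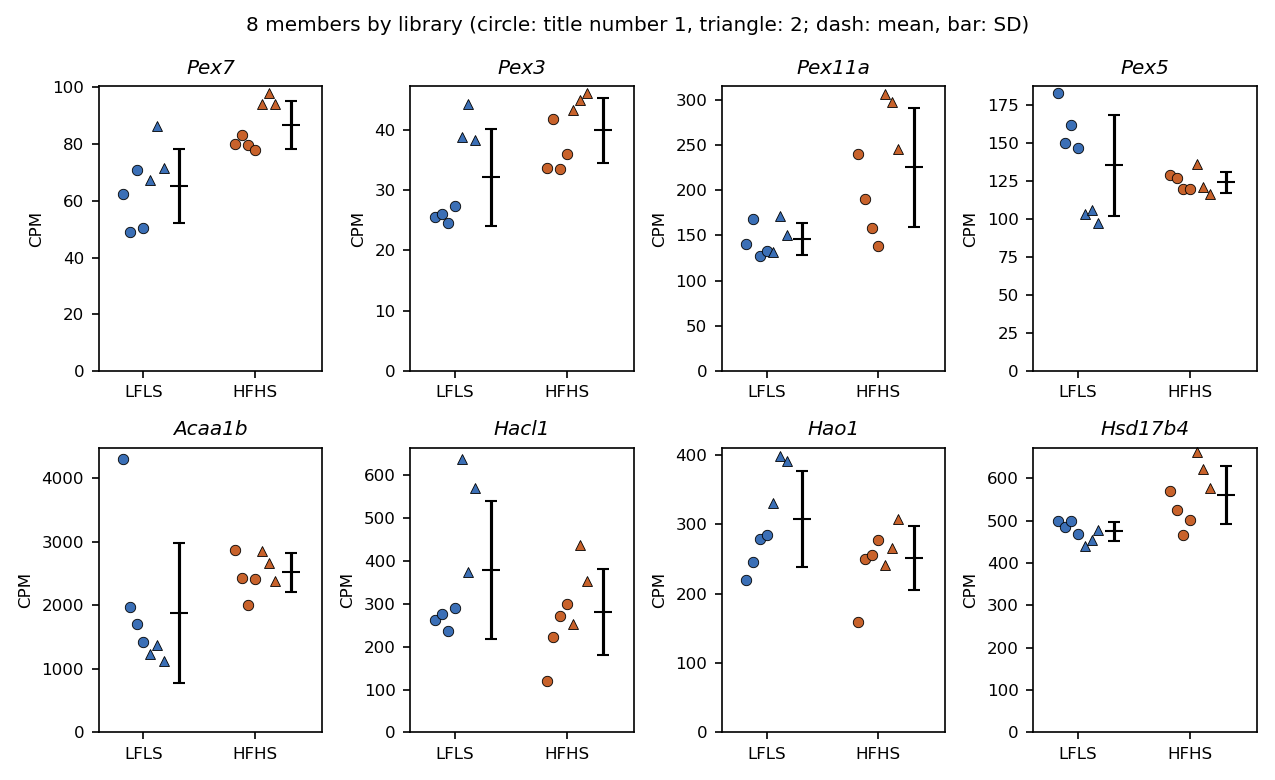
CPM of 8 members in each library, LFLS in blue and HFHS in orange, with circles for title number 1 and triangles for number 2. Dashes and bars give the mean and SD of 7 libraries. Pex7 separates the diets within each title number (4 and 3 libraries per diet). Pex5 has its LFLS libraries of number 1 above and of number 2 below all others.

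Pex5 had no diet difference over all libraries, with a log2 of -0.12 ± 0.13 (SE) and an edgeR adjusted p of 0.640. It was the 1 member called in the test of whether the diet difference differs between the title numbers. In LFLS it stood at 160 ± 16.5 CPM in number 1 (SD, n = 4) and 102 ± 4.31 CPM in number 2 (SD, n = 3). In HFHS it stood at 124 ± 4.79 and 124 ± 10.3 CPM. All 7 HFHS libraries, from 116 to 136 CPM, therefore lay below every LFLS library of number 1 and above every LFLS library of number 2. The log2 difference between diets was -0.35 in number 1 and 0.29 in number 2. The interaction was 0.66 ± 0.13 (SE) with an edgeR adjusted p of 0.0418, and 0.883% of all genes were called in that test. Pex2 came next among the members, at -0.63 ± 0.18 (SE) with an edgeR adjusted p of 0.0765. The call of Pex5 held without LFLS 1, LFLS 4 or HFHS 1. It was lost without any 1 of the other 11 libraries (LFLS 2, 3, 5, 6 and 7 and HFHS 2 to 7), with adjusted p up to 0.160. The calls over all genes moved likewise, from 152 with all libraries to 652, 1267 and 966 in the fits where Pex5 held. In the other 11 fits they fell to between 0 and 10. The interaction of Pex5 itself stayed between 0.56 and 0.71 without any 1 library. With the GC offset the interaction of Pex5 was 0.39 with an edgeR adjusted p of 0.138.

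Among the genes of receptor export and recycling, Pex2 and Pex10 are RING-finger proteins of the complex that ubiquitinates the import receptors, and Pex6 is an ATPase, tethered by Pex26, that pulls them back to the cytosol. With edgeR none of the 4 was called with or without the block. Pex2 ran in LFLS from 25.5 (LFLS 1) through 35.9 to 54.8 CPM (LFLS 5), and in HFHS from 42.8 (HFHS 1) through 50.0 to 52.0 CPM (HFHS 2). All 7 HFHS libraries lay above the LFLS median but within the LFLS range. The log2 difference was 0.28 ± 0.14 (SE) with an edgeR adjusted p of 0.298. Limma voom called Pex2 higher, with a log2 of 0.38 and an adjusted p of 0.0173. In edgeR the log2 difference was 0.60 within number 1 (adjusted p 0.0325) and -0.04 within number 2 (0.882). The log2 difference was 0.04 for Pex10, -0.24 for Pex6 and -0.09 for Pex26, with edgeR adjusted p-values from 0.484 to 0.907.

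Among the enzymes of beta-oxidation, Acox2 and Acox3 oxidise branched acyl-CoAs in the first step, Ehhadh and Hsd17b4 are the L- and D-type bifunctional enzymes of the middle steps, and Acaa1a and Acaa1b are the thiolases of the last. With edgeR over all libraries and no GC offset, none of the 6 was called with or without the block. Hsd17b4 ran in LFLS from 440 (LFLS 5) through 477 to 500 CPM (LFLS 1), and in HFHS from 466 (HFHS 3) through 570 to 662 CPM (HFHS 5). HFHS 3 was the only HFHS library within the LFLS range. The difference was 1.18-fold (95% interval 1.03 to 1.35), with an edgeR adjusted p of 0.168 and 0.101 with the block. Its log2 difference was 0.09 within number 1 and 0.45 within number 2. Acox2, Acox3 and Ehhadh had log2 differences of -0.14, -0.11 and -0.10, with edgeR adjusted p-values of 0.414 or more.

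Acaa1b and Acaa1a are gene copies that share part of their transcript sequence. Of the 50-base stretches of Acaa1b transcripts, 39.6% also occur in another gene and 30.5% in Acaa1a. For Acaa1a, 17.1% also occur in another gene and 12.4% in Acaa1b. Reads of the shared stretches may be split between them. Like shares also occur in another gene for Pex11g (39.2%), Hacl1 (30.1%), Scp2 (29.7%) and Pex14 (25.2%). Whether this touched their counts is not known, since the annotation used for counting is not given. The promoters of Acaa1a and Acaa1b are shown because the upstream sequences differ, with no identical run longer than 8 bases at any position. The windows are chr9:119341044-119341343 (plus strand) and chr9:119157044-119157343 (minus strand), drawn as above with GGGCGG in capitals.
Acaa1a: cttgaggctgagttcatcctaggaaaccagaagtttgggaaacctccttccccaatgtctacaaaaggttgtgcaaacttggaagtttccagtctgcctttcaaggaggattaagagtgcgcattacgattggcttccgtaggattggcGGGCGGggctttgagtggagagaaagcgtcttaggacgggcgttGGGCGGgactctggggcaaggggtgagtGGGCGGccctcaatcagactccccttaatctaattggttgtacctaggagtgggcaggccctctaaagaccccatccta
Acaa1b: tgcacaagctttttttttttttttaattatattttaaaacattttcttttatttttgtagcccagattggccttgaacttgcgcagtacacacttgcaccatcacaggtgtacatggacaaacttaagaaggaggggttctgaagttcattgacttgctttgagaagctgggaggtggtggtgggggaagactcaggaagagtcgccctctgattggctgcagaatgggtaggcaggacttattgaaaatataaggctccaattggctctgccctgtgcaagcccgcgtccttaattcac
The GC box stood 3 times in the Acaa1a window and was not in that of Acaa1b. Each window held 4 matches of CCAAT on either strand (CCAAT or ATTGG as printed). Overlapping matches, as in ccaattgg of Acaa1b, were counted apart. Acaa1b had 13.1 times the CPM of Acaa1a (median of 14 libraries, range 7.72 to 17.8). Per kilobase of exon the median was 29.4 times, with all annotated exons taken as 1962 bases for Acaa1b and 4414 for Acaa1a. Which of these exons were expressed was not examined.

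Acaa1b ran in LFLS from 1124 (LFLS 7) through 1426 to 4307 CPM (LFLS 1), and in HFHS from 2011 (HFHS 3) through 2424 to 2874 CPM (HFHS 1). LFLS 1 lay above every HFHS library, and the other 6 LFLS libraries, up to 1967 CPM, lay below all of them. With all libraries the log2 difference was 0.42 ± 0.26 (SE) and the edgeR adjusted p was 0.376. Without LFLS 1 it was 0.77 with an adjusted p of 0.0108. Limma voom with quality weights, over all libraries, gave 0.62 with an adjusted p of 0.00966. Within number 1, which holds LFLS 1, the log2 difference was 0.07 (adjusted p 0.906), and within number 2 it was 1.09 (0.0138). LFLS 1 was also the library with the highest correlation to GC content, and the GC content of Acaa1b is 58.9%. With the GC offset the log2 difference of Acaa1b was 0.63 with an edgeR adjusted p of 0.0609, and with the offset and the block it was 0.64 with an adjusted p of 0.0493. Acaa1a ran from 99.6 (LFLS 5) through 146 to 262 CPM (LFLS 1) in LFLS and from 160 (HFHS 3) through 175 to 193 CPM (HFHS 1) in HFHS. Its log2 difference was 0.12 ± 0.16, with an edgeR adjusted p of 0.728. With the counts of both copies summed, the log2 difference was 0.40 ± 0.25 with an adjusted p of 0.387.

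Among the transporters and carriers, Abcd3 brings branched-chain acyl-CoAs and bile acid intermediates into the peroxisome, Crot makes the carnitine esters in which shortened chains leave, and Abcd4 is a relative of Abcd3 that acts in lysosomal cobalamin transport. Abcd3 ran in LFLS from 558 (LFLS 3) through 858 to 1083 CPM (LFLS 6), and in HFHS from 685 (HFHS 3) through 830 to 1109 CPM (HFHS 6). The ranges overlapped almost wholly, and the median was lower in HFHS while the fitted log2 difference was 0.17 ± 0.17 (SE), with an edgeR adjusted p of 0.612. In both diets the libraries of number 2 tended higher, at 957 ± 115 CPM in LFLS and 1092 ± 29.5 CPM in HFHS (SD, n = 3), against 667 ± 137 and 742 ± 63.7 CPM in number 1 (SD, n = 4). The log2 differences were 0.08 for Scp2, 0.03 for Crot and 0.02 for Abcd4, and edgeR called none of the 4 genes with or without the block.

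Among the auxiliary enzymes, Decr2, Ech1 and Pecr deal with double bonds of unsaturated acyl-CoAs. Their log2 differences lay between 0.10 and 0.12, and edgeR called none, with or without the block. Limma voom called Pecr (adjusted p 0.0304) and Ech1 (0.0411) higher. Pecr, which had the smallest p of the 3, ran in LFLS from 96.2 (LFLS 5) through 122 to 157 CPM (LFLS 1) and in HFHS from 100.2 (HFHS 1) through 133 to 140 CPM (HFHS 7). All HFHS libraries lay within the LFLS range, and the edgeR adjusted p was 0.594. Alpha-oxidation removes 1 carbon from branched chains through Phyh and the lyase Hacl1. Hacl1 had the widest spread of all members in HFHS on the log2 scale (SD 0.59). In CPM it ran from 236 (LFLS 3) through 291 to 638 CPM (LFLS 5) in LFLS and from 120 (HFHS 1) through 272 to 438 CPM (HFHS 6) in HFHS. Its log2 difference of -0.43 ± 0.28 (SE) had a 95% interval from 0.49-fold to 1.11-fold and an edgeR adjusted p of 0.396. Phyh had a log2 difference of -0.17 and an adjusted p of 0.614, and edgeR called neither gene with the block.

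In ether lipid synthesis, Gnpat and Agps catalyse the opening steps of plasmalogen synthesis. Agps ran in LFLS from 11.7 (LFLS 1) through 18.8 to 23.4 CPM (LFLS 5) and in HFHS from 18.3 (HFHS 5) through 21.3 to 22.4 CPM (HFHS 1). Its HFHS libraries lay within the LFLS range, with a log2 difference of 0.18 ± 0.13 (SE) and an edgeR adjusted p of 0.458. The log2 difference of Gnpat was -0.09 with an adjusted p of 0.582. Hao1 oxidises glycolate to glyoxylate. It ran in LFLS from 219 (LFLS 1) through 285 to 399 CPM (LFLS 6) and in HFHS from 159 (HFHS 1) through 256 to 308 CPM (HFHS 7). Of the HFHS libraries, 6 lay below the LFLS median. The log2 difference was -0.29 ± 0.16, with an edgeR adjusted p of 0.321 and 0.185 with the block. With the GC offset and the block together Hao1 was called lower, at -0.39 with an adjusted p of 0.0389. Catalase gave 0.08 and Pipox, an oxidase of pipecolic acid and sarcosine, 0.17, with edgeR adjusted p-values of 0.752 and 0.506. Limma voom called Pipox higher, with an adjusted p of 0.0359.

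**Figure D4:**
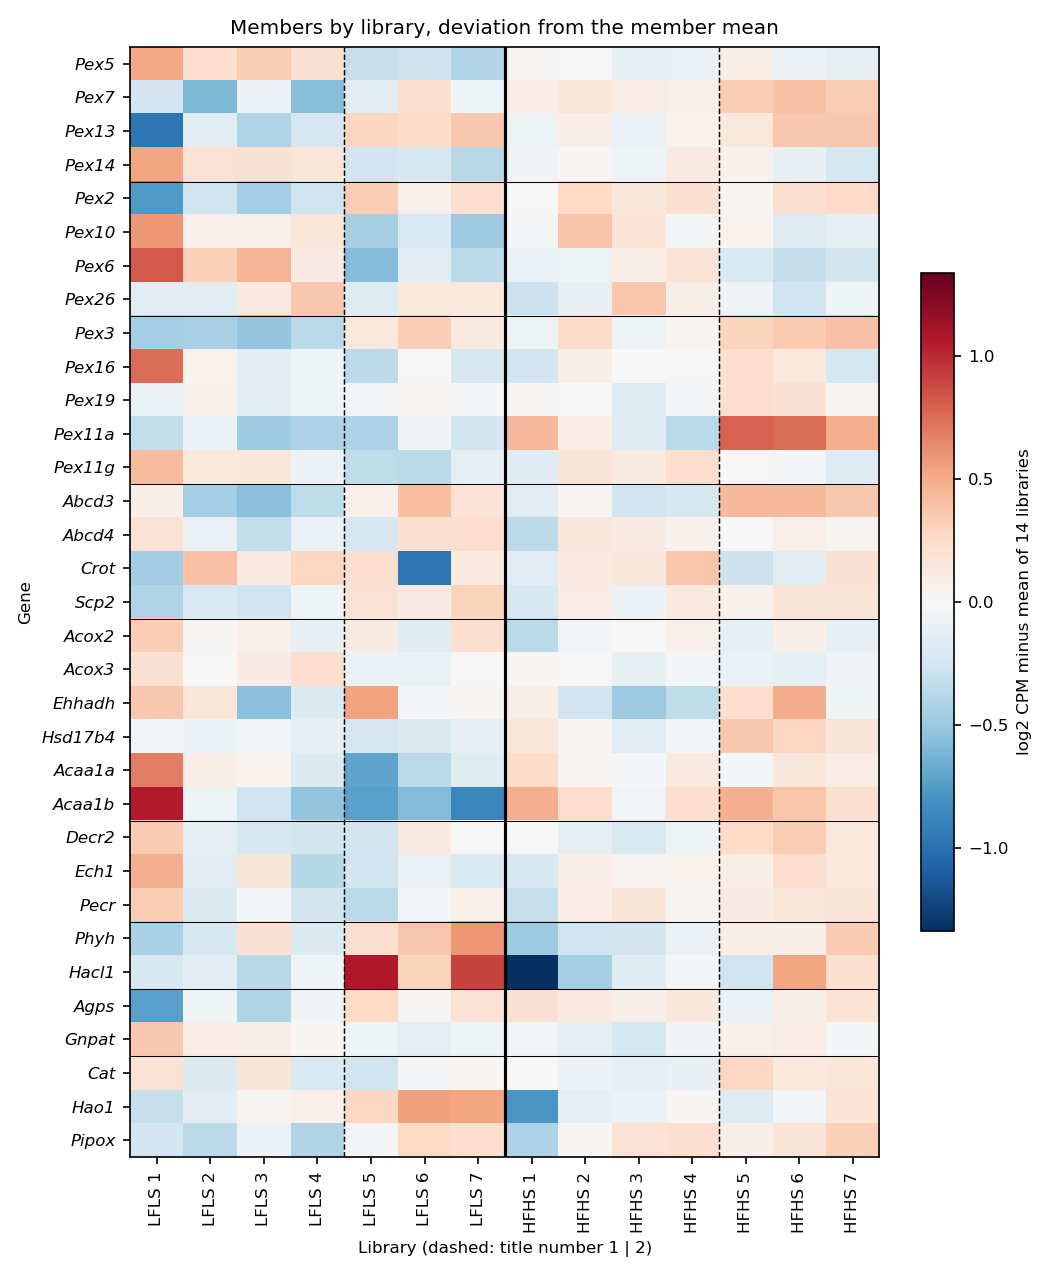
Log2 CPM of each member in each library minus the member's mean over 14 libraries, in red above and in blue below. The solid vertical line parts LFLS from HFHS and dashed lines part title numbers 1 and 2. LFLS 1 shows the darkest cells for several genes, among them Acaa1b and Pex13, and HFHS 1 for Hacl1.

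Members varied more among LFLS than among HFHS mice. The SD of log2 CPM was larger in LFLS for 28 of 33 members, beside 79.3% of all genes tested, with medians of 0.33 in LFLS and 0.18 in HFHS for the members and 0.35 and 0.21 for all genes. With the title number means removed, it was larger in LFLS for 24 of 33 members and 66.5% of all genes. This pattern of spread was thus shared by the genes at large, and no test of it was made.

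The diet difference often had opposite signs in the libraries of each title number. The sign was shared for 16 of 33 members, beside 52.4% of all genes. In the interaction test 11 members had an unadjusted p under 0.05, beside 22.6% of all genes. Of the 11, 8 had a larger HFHS over LFLS value in number 2 and 3 in number 1. Across the 33 members the interaction correlated with GC content, with a Pearson r of 0.75 and a Spearman rho of 0.78, as it did across all genes with a Pearson r of 0.45. These genes share libraries, and the values are descriptions. After the GC offset the Pearson r across members was 0.14. The offset takes out each library's trend with GC content, so this lower r follows from its making and tests no cause.

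**Figure D5:**
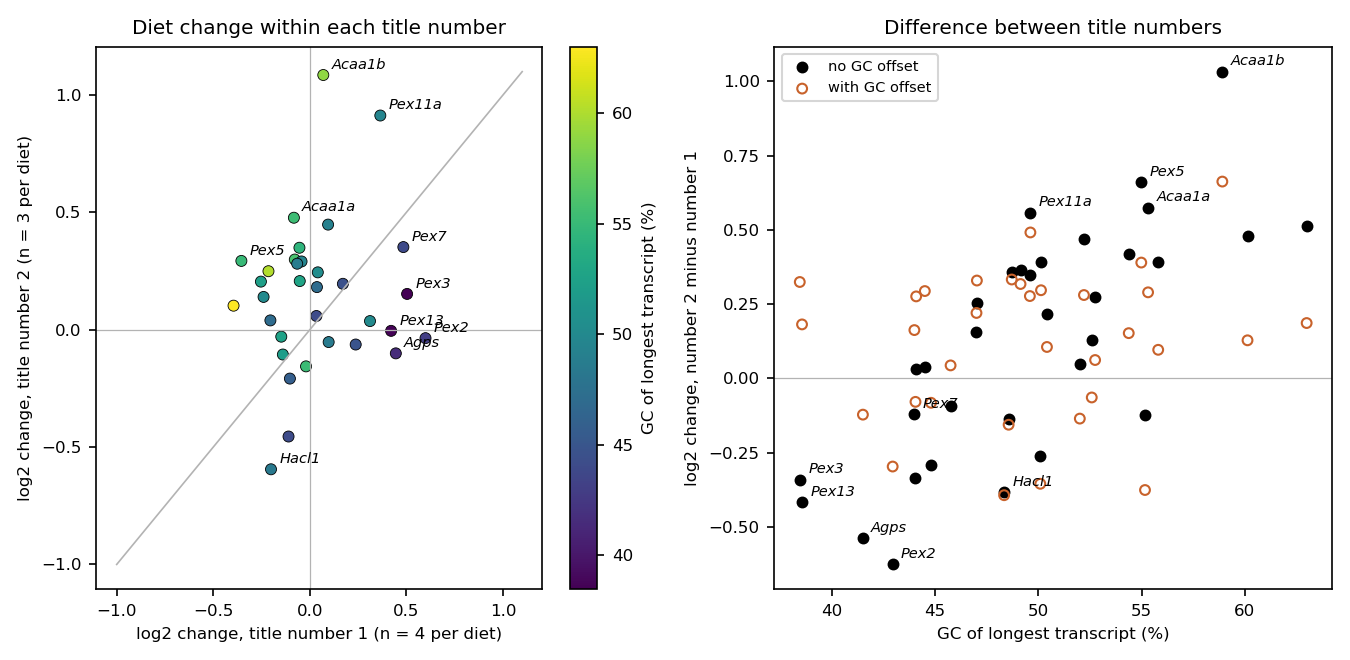
Left, log2 difference HFHS over LFLS in title number 1 (x axis, n = 4 per diet) against number 2 (y axis, n = 3 per diet) for each member, coloured by GC content. Right, the difference between both values against GC content, without (filled) and with (open) an offset for GC content. Members of low GC such as Pex2 and Agps lie low and those of high GC such as Acaa1b and Pex5 lie high without the offset.

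Other genes of the pathway were counted from lists that are not part of the 33. In edgeR's fit without the block, 236 of all 17223 genes tested were called higher and 248 lower, together 2.81%. Among other genes of biogenesis and the peroxisomal membrane, 1 of 16 tested rose and 0 fell, with a median log2 difference of 0.15. The gene that rose was Abcd2, a transporter of very long chain acyl-CoAs. Abcd2 ran in LFLS from 8.38 through 12.0 to 27.5 CPM and in HFHS from 30.6 through 46.0 to 71.9 CPM. The diets thus did not overlap, as was so for 1.65% of all genes tested. Its log2 difference was 1.58 ± 0.29 (SE) with an edgeR adjusted p of 0.0118, and it was called without any 1 library. Among the genes of smallest p in this list that were not called, Pxmp4 had a log2 difference of -0.35 and Tmem135 of 0.25. Their edgeR adjusted p-values were 0.138 and 0.269.

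Among other peroxisomal enzymes, 1 of 32 tested rose and 1 fell, beside 2.81% of all genes called, with a median of 0.03. Agxt, the aminotransferase that turns glyoxylate into glycine, fell from 183 ± 32.9 CPM in LFLS to 112 ± 20.1 CPM in HFHS (SD, n = 7). Its log2 difference was -0.71 ± 0.14 (SE) with an edgeR adjusted p of 0.0157. Acot4, a thioesterase, rose from 45.5 ± 16.9 to 98.0 ± 38.3 CPM, a log2 difference of 1.11 ± 0.28 with an adjusted p of 0.0451. The call of Acot4 was lost without any 1 library other than LFLS 6 and HFHS 3 (adjusted p up to 0.109), and with the block its adjusted p was 0.00260. Gstk1, a glutathione transferase, and Nudt7, which hydrolyses coenzyme A, had log2 differences of 0.42 and -0.67 with edgeR adjusted p-values of 0.0534 and 0.0901.

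Among PPAR receptors and their partners, 0 of 14 tested were called by edgeR's quasi-likelihood test, with a median log2 difference of -0.24. Ppara itself gave -0.06 with an adjusted p of 0.774. With the block 1 rose (Pparg) and 3 fell, among them Ppard and Rxra, where 4.38% of all genes rose and 4.56% fell. The block gave 1 higher and 0 lower of 16 among the other genes of biogenesis and membrane, 4 higher and 1 lower of 32 among the other enzymes, and 3 higher and 0 lower of 26 among the targets of PPAR alpha outside peroxisomes. Without it the log2 differences of Pparg, Ppard and Rxra were 0.90, -0.45 and -0.42, with edgeR adjusted p-values of 0.0629, 0.0788 and 0.174. Without the block, 2 of those 26 targets rose and 0 fell, beside 2.81% of all genes called, with a median of 0.11. These were Cd36, a fatty acid carrier (log2 1.55 ± 0.23, edgeR adjusted p 0.00388), and Cidea, a lipid droplet protein (3.11 ± 0.74, 0.0354). The call of Cidea was lost without any 1 of LFLS 2, 4, 5 and 7 and HFHS 1, 2, 5, 6 and 7. Acadm and Aldh3a2 had log2 differences of 0.35 and 0.58 with edgeR adjusted p-values of 0.0609 and 0.0824.

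In the authors' deposited table, 37 genes had an adjusted p under 0.05. All 33 members stood at an adjusted p of 1 there, and Pex11a alone had an unadjusted p under 0.05, listed as 0.04.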

How the data were processed

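Liver libraries of 7 LFLS and 7 HFHS mice were compared. Per the submitters' processing notes, CASAVA 1.8, TopHat, Bowtie and DESeq were used with mouse build mm9. The sources used here give no counting tool or annotation. The labels do not say that strand was kept, so reads of a gene and of one that overlaps or is antisense to it are not separable. The authors' deposited table holds whole-number counts per gene, never below 1, with 11120 genes at 1 in every library. The authors' deposited results table gives signal (a mean of size-factor scaled counts), fold change as a ratio, its log2, and DESeq p-values, per the file headers. Its headers do not name the groups, so only its gene names and p-values were used.

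The quasi-likelihood F test of edgeR 4.0.16 was run on the counts in R 4.3.3 (TMM scaling, the default filter on low counts by diet, Benjamini-Hochberg adjustment over 17223 genes, called under 0.05). CPM values are TMM-scaled, marker sums are plain CPM, and log2 CPM used a prior count of 2. The SE is the log2 difference over the root of F. Each library is 1 mouse, so p-values reflect spread between these libraries, counting error included. The code was tested on simulated data. Libraries sharing a title number on different diets deviated together (mean correlation 0.129, against -0.134 otherwise). Exon lengths, GC content and transcript sequences came from GENCODE M21, matched by gene identifier, and promoters from RefSeq. No protein sequences were used.

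The members and lists were chosen with earlier results of these data known. Every member is named. Library values are given for members called with or without the block, for the 6 of smallest p and for the smallest p of each role. Up to 4 genes of smallest p are named from each other list, and some are not reported here. Acaa1a, Acaa1b and Pex5 received library values after their values were seen. Alternatives were RLE size factors, library totals, no filter, at least 1 CPM in at least 7 libraries, limma 3.58.1 (voom, quality weights), DESeq2 1.42.0, the title number or the 7 title pairs as a block, each title number alone, the Acaa1 copies summed, and every fit with 1 library omitted. Chosen after the data had been seen were counts lowered by 1, the GC offset (lowess, span 0.3) and omission of libraries in the block and interaction fits.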

Additional observations from a re-analysis of the deposited data

Results flagged for a closer look

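In 66 groups of 7 libraries (33 members in 2 diets), 5 held a library far from the other 6 by Dixon's ratio, which chance gives in about 1 in 20 groups. LFLS 1 was the highest LFLS library for Pex16 (130.5 CPM, next 80.5), Acaa1b (4307 CPM, next 1967) and Gnpat (62.64 CPM, next 52.34). HFHS 1 was the lowest HFHS library for Abcd4 (10.22 CPM, next 12.96) and Pecr (100.2 CPM, next 126.5). Of these 5 genes only Acaa1b was called by edgeR without that library.

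For Pex5, an import receptor, the diet difference differed between title numbers by a log2 of 0.6598 (number 2 minus number 1), with an edgeR adjusted p of 0.0418. The cause was not tested.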

How the results depend on the processing

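The count of 0 members called between diets stayed at 0 with RLE size factors, with no filter, with the stricter filter and with 1 subtracted from every count. It was 2 with library totals alone (beside 531 of 17223 genes), 2 with DESeq2 (beside 1258) and 7 with limma voom (beside 3274). With the title number as a block it was 3 (Pex3, Pex7 and Pex11a, beside 1540). In title number 1 alone it was 3 (Pex3, Pex7 and Pex2, beside 1484 of 17485 genes), and in number 2 alone 2 (Acaa1b and Pex11a, beside 269 of 17010). With the GC offset it was 1 (Pex11a, beside 643 of 16351). With the GC offset and the block it was 3 (Acaa1b and Pex11a higher and Hao1 lower, beside 1265 of 16351). Leaving out 1 library gave 0 to 2 (LFLS 1, LFLS 6, HFHS 3 and HFHS 4 gave 1 or more). Over all genes these fits called 679, 853, 360 and 401, and the fits without any other library 133 to 421. The 3 members called with the block became 4 without LFLS 1, where Acaa1b joined them, beside 1862 of 17371 genes. They stayed at 3 without any other library, beside 650 to 1654 genes. The interaction count of 1 (Pex5, beside 152 of 17223 genes) fell to 0 with library totals alone, no filter and the GC offset. Over all genes 46, 2 and 1 were called under those 3 settings, and the interaction of Pex5 had edgeR adjusted p-values of 0.0547, 0.168 and 0.138. The count ran from 0 to 2 without 1 library. Pex2 joined Pex5 without LFLS 4 or HFHS 1, where 1267 and 966 genes were called.

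The 7 pairs of titles that share their first number and ending letters gave 1 called member as a replicate block (Pex7, log2 0.43, edgeR adjusted p 0.0381). That fit called 598 of 17223 genes. Deviations of the paired libraries correlated between -0.07 and 0.41, over 0.1 in 4 of 7 pairs. Pairing was to be accepted only with every pair over 0.1, so this block is given as an alternative. Signs turned for Pex2 in number 2 alone (-0.0357), Agps in number 2 alone (-0.1005), Acaa1a in number 1 alone (-0.0823), and Pex5 in number 2 alone (0.2934), with the GC offset (0.0102) and with the GC offset and the block (0.0165). Over all 33 members, 14 kept their sign in all 27 alternatives and 19 did not. Over all genes, calls ran from 133 (without HFHS 2) to 3274 (limma voom) against 484. Library totals alone gave 379 higher and 152 lower, against 236 and 248. The causes were not tested. Poisson counting error was under 5% of the count in every library for 30 of 33 members. It reached 10.7% for Pex10 (lowest count 87), beside a CV of 27.1% among LFLS and 14.1% among HFHS libraries. For Abcd4 it reached 6.61% (CV 15.8% and 10.8%) and for Agps 5.46% (CV 22.1% and 6.56%). For Acox3 it reached 4.11%, beside a CV of 9.09% among LFLS and 3.92% among HFHS libraries. These errors are those of the library with the lowest count. Of these genes, they came nearest to the CV for Acox3 and Agps in HFHS libraries, where depth limits most what can be said. For Pex10 and Abcd4 they lay below the CV of both diets.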
